A study of Mus musculus with 2 samples.

Results

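The cells described here are 126 neurons, of 11212 kept cells in all, that carried UMIs of both Isl1 and Pou4f1. These 2 genes encode homeodomain transcription factors that are known to act together in neurons of the cranial and dorsal root ganglia. Each captured transcript molecule is counted once through its own random tag, the UMI. Cells were chosen on measured counts from barcodes with 200 to 7500 genes and at most 10% mitochondrial UMIs. A member had at least 3 UMIs of Elavl3 and Stmn2 together, at least 1 UMI of Isl1 and of Pou4f1, at most 1 UMI of Prrx1, Prrx2 and Twist1 together, and no Sox10 UMI. Of the members, 95 were among 5625 control cells and 31 among 5587 mutant cells.

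Both libraries were made from cells sorted as GFP-positive from dissociated heads of E11.5 mouse embryos. All embryos carried Wnt1CRE, which recombines in premigratory cranial neural crest cells (CNCCs), and were homozygous for the mTmG reporter at the r26 locus. Control embryos (Tfap2HET) were Tfap2a wt/flox and Tfap2b wt/flox, so that the controls also carried 1 floxed allele of each gene, and mutant embryos (Tfap2NCKO) were flox/flox for both genes. Cells of 2 embryos were pooled into 1 library per genotype, so no replicate error could be estimated, no p-value was computed, and every interval given in brackets is a 95% interval for counting error only. The control members carried Xist (94 of 95 cells) and the mutant members Y-linked transcripts (27 of 31 cells), so the effect of genotype and that of sex cannot be told apart here.

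As background, the sensory ganglia of the head take their neurons from the neural crest and from the ectodermal placodes. Progenitors are specified by the proneural factor Neurog1 or Neurog2, pass through a step marked by Neurod1, and then switch on Isl1, Pou4f1 and, in many cells, receptors for neurotrophic factors such as Ntrk2, Ntrk3 and Ret. Tlx2 and Tlx3 are homeobox genes of developing neurons. Wnt1:CRE also labels cells of the dorsal midbrain and hindbrain, and neurons of the brain can carry Isl1 or Pou4f1 as well. The name of a ganglion neuron therefore had to be checked on genes that the gate did not use.

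The label was checked on 17 sensory identity factors that the gate did not use. Their summed level was 1618 CPM (UMIs of the genes per 1000000 UMIs of the cells summed) in control members and 1238 in mutant members, against 464 and 419 in the other neurons, which passed the same terms but lacked Isl1 or Pou4f1. Single factors divided the members further. Tlx2 was detected in 66 of the 95 control members (69.5% [59.2, 78.5]) and in 4 of the 31 mutant members (12.9% [3.63, 29.8]). Among the other neurons, 0.621% of 805 control cells and 0.0733% of 1365 mutant cells had a Tlx2 UMI. After each cell was thinned to 5000 UMIs, Tlx2 was found in 53.7% of the control members and in 6.45% of the mutant members. It was found in 0.128% of the other control neurons and in 0 of 1320 other mutant neurons, which allows a share of up to 0.279%. Median depth was 17860 UMIs in control members and 17340 in mutant members, against 9787 and 9817 in the other neurons. Cells without a Tlx2 UMI also carried genes of this list, and whether they are ganglion or brain neurons was not tested. The summed level of the list was 1606 CPM in control cells with Tlx2 and 1643 in control cells without, and 1411 and 1214 in the mutant cells. Among cells without Tlx2, 23 of the 29 in the control library and 14 of the 27 in the mutant library had a Tlx3 UMI, and 17 and 13 had one of Prrxl1. Since brain genes were also counted in the members, as given below, these are called Isl1/Pou4f1 neurons here and are described with and without a Tlx2 UMI. This split was made after the values were seen and on a gene with one of the lowest mutant-to-control ratios, so the levels of Tlx2 and its share of cells are a description.

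Several genes were found in most cells with Tlx2. Eya2, a transcriptional coactivator of placodal and neuronal progenitors, had a UMI in 62 of the 66 control cells with Tlx2 and in 10 of the 29 without. Neurod1 was found in 66 of 66 and 16 of 29 of them, and Neurog1 in 60 of 66 and 10 of 29. The 4 mutant cells with Tlx2 held 2, 3, 9 and 11 Tlx2 UMIs, against a range of 1 to 19 and a median of 6 in the 66 control cells. In the same 4 mutant cells Neurod1 had 21, 38, 41 and 44 UMIs, Eya2 3, 6, 8 and 9, and Neurog1 2, 6, 7 and 12. These counts all lay within the range of the control cells with Tlx2, while Pou3f1 and Zic1 had no UMI in any of the 4.

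Other genes were found in most cells without a Tlx2 UMI, in both libraries. Pou3f1, Pou3f2 or Pou3f4, POU factors of the developing brain, had a UMI in 27 of 29 control and 26 of 27 mutant cells, and Zic1, a factor of the dorsal neural tube, in 19 of 29 and 22 of 27. Crabp1, which encodes a retinoic acid binding protein, had a median of 292 UMIs per cell (range 0 to 747) in the 29 control cells and of 264 (0 to 778) in the 27 mutant cells. In the cells with Tlx2 its median was 0 in the control library (0 to 235) and 1 in the mutant library (0 to 3). At least 1 of the brain genes Lhx1, Lhx2, Lhx5, Lhx9, Barhl1 and Otx2 had a UMI in 19 of the 29 control cells and 20 of the 27 mutant cells, and also in 20 of the 66 control cells and 1 of the 4 mutant cells with Tlx2. A smaller number expressed Prph, the intermediate filament peripherin of peripheral and some central neurons, together with Isl2, namely 7 control and 5 mutant cells. The split was not sharp for each cell. Of the 66 control cells with Tlx2, 16 had a UMI of a POU class 3 gene, 13 held 1 or 2 Tlx2 UMIs and Onecut2 was found in 42, and of the cells without Tlx2, 8 of 29 control and 7 of 27 mutant cells had both Neurod1 and Eya2.

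**Figure D1:**
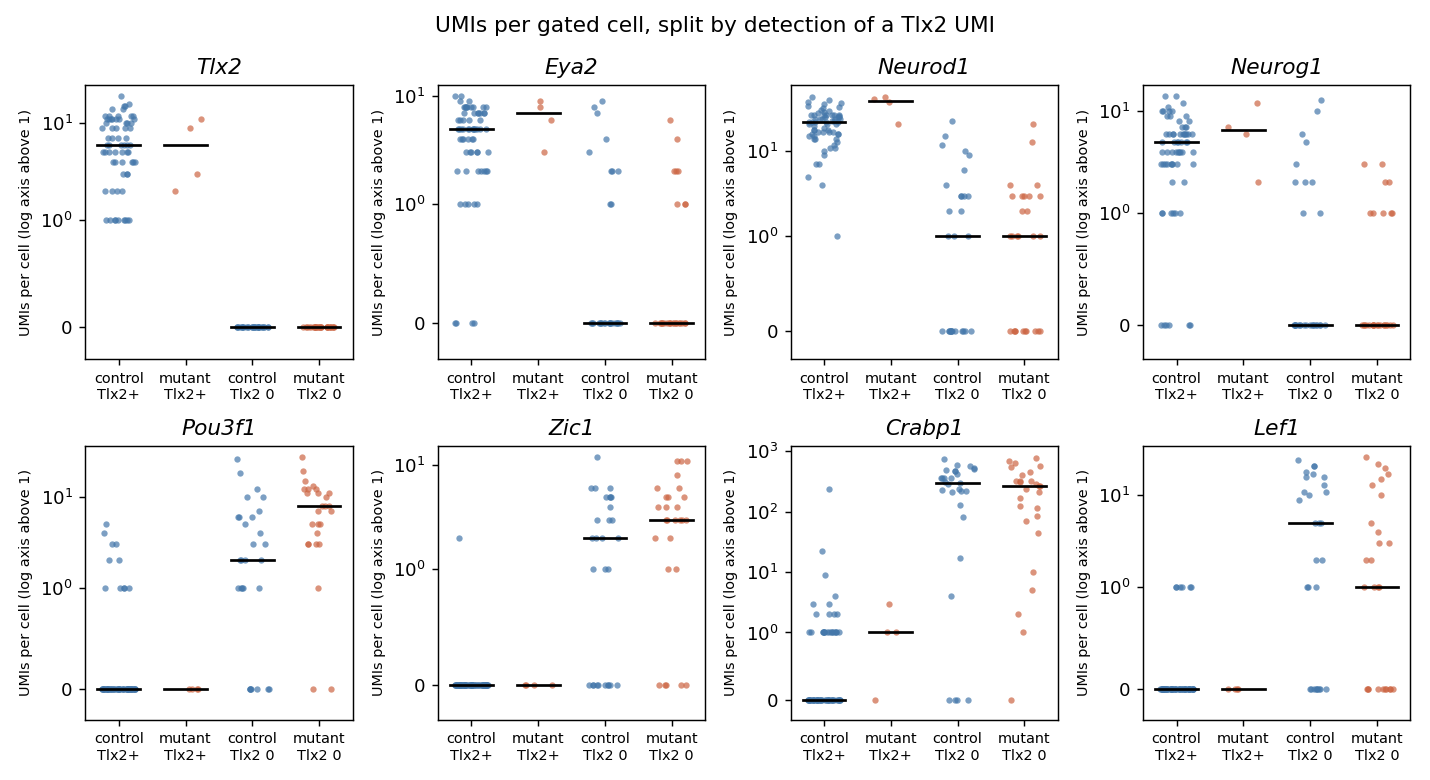
UMIs per gated cell (vertical axis, linear from 0 to 1 and logarithmic above) for 8 genes, in cells with at least 1 Tlx2 UMI (Tlx2+) and with none (Tlx2 0), where each point is a cell and the bar is the median. Tlx2, Eya2, Neurod1 and Neurog1 were high in the 66 control and 4 mutant Tlx2+ cells, and Pou3f1, Zic1, Crabp1 and Lef1 in the 29 control and 27 mutant cells without Tlx2.

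**Figure D2:**
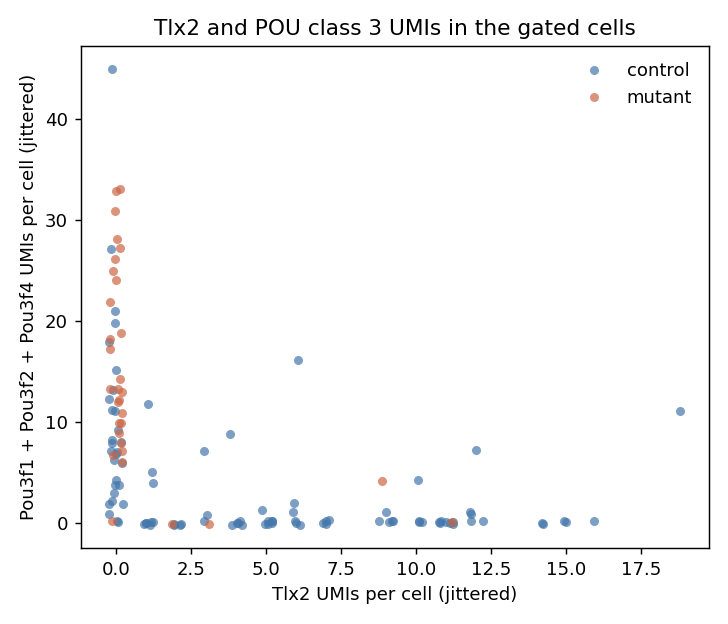
Tlx2 UMIs per cell (horizontal axis) against summed UMIs of Pou3f1, Pou3f2 and Pou3f4 (vertical axis) in the 95 control and 31 mutant members, with a small random shift of each point. Most mutant cells lie on the vertical axis at 0 Tlx2 UMIs, and 3 of the 4 mutant cells with Tlx2 had no UMI of the POU genes.

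In the control library, the genes that most separated the 2 subsets were taken by fold among those with 100 UMIs or more in either. The cells with Tlx2 were led by Gm16104 (150 UMIs with Tlx2 and 2 without), the protocadherin Pcdh17 (344 and 8), the potassium channel subunit Kcnmb2 (326 and 8), Rgs4 (266 and 8), the adhesion molecule Alcam (276 and 9) and Nedd1 (197 and 7), which acts at the mitotic spindle. Neurod1 had 1412 and 98 UMIs. The cells without Tlx2 were led by Prph (3 and 169 UMIs), Gpm6a (3 and 114), Lef1 (6 and 209), Crabp1 (300 and 8436), Ly6h (9 and 132) and Stmn4 (35 and 363). These lists describe a split made on the same cells and are not tests.

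Markers of other tissues and cell types were summed over the members. Blood genes summed to 19 UMIs over the control members and 0 over the mutant members, endothelial and macrophage genes to 2 and 1, and epithelial genes to 6 and 2. Of the 8 epithelial genes 5 and 7 were at 0. The 18 mesenchyme genes, which do not include the 3 that the gate limits, had a median of 1 UMI per cell in both libraries. The highest values were 9 and 12. The glia list gave 576 UMIs in 78 of 95 control members (314 CPM, up to 49 UMIs in a cell) and 148 UMIs in 24 of 31 mutant members (228 CPM, up to 41), against 729 and 755 CPM in the other neurons. The autonomic and visceral list (Hand2, Th and others) gave 118 UMIs in 22 control cells and 158 UMIs in 16 mutant cells, with up to 71 UMIs in 1 mutant cell. Motor neuron genes gave 4 UMIs in 4 control cells and 95 in 8 mutant cells, all 8 of them without Tlx2, which is 146 CPM in the mutant members against 69.1 in the other mutant neurons. The inhibitory brain neuron list gave 274 UMIs in 18 control members (up to 74 in a cell) and 295 UMIs in 14 mutant members (up to 76). Of its genes, Gad1, the enzyme that makes GABA, had a UMI in 6 mutant members and in 1 control member, and Gad2 in 5 and 3. The excitatory and rhombic lip list gave 1069 UMIs in 88 control members (583 CPM) and 659 UMIs in 30 mutant members (1014 CPM). In the other neurons it gave 1896 and 1817 CPM. The part of these cells in the results below was not tested.

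The share of gated cells differed between the libraries. Isl1/Pou4f1 neurons made up 1.69% [1.37, 2.06] of the control cells and 0.555% [0.377, 0.787] of the mutant cells, a difference of -1.13 percentage points [-1.55, -0.739]. Neurons as a whole went the other way, with 900 control cells (16%) and 1396 mutant cells (24.99%). As a share of neurons the members were 10.6% [8.62, 12.7] in the control library and 2.22% [1.51, 3.14] in the mutant library. When the gate was applied after thinning to 5000 UMIs, 82 of 5504 control cells (1.49%) and 17 of 5414 mutant cells (0.314%) passed.

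The difference lay in the cells with Tlx2, a gene chosen with its low ratio known, so this division is a description. They made up 1.17% [0.909, 1.49] of the control cells and 0.0716% [0.0195, 0.183] of the mutant cells, a ratio of 16.4. Cells without Tlx2 made up 0.516% [0.346, 0.740] and 0.483% [0.319, 0.702], a difference of -0.0323 percentage points [-0.310, 0.245]. Without the gate, 76 control cells and 4 mutant cells of all kept cells had UMIs of Tlx2, Eya2 and Neurod1, 3 genes chosen with their lower ratios known (1.35% [1.07, 1.69] and 0.0716% [0.0195, 0.183]). Of these, 14 control cells lay outside the gate and 0 mutant cells, where 0 of 5587 allows a share of up to 0.0660%. The rest are members, so this count is no independent support for the difference.

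**Figure D3:**
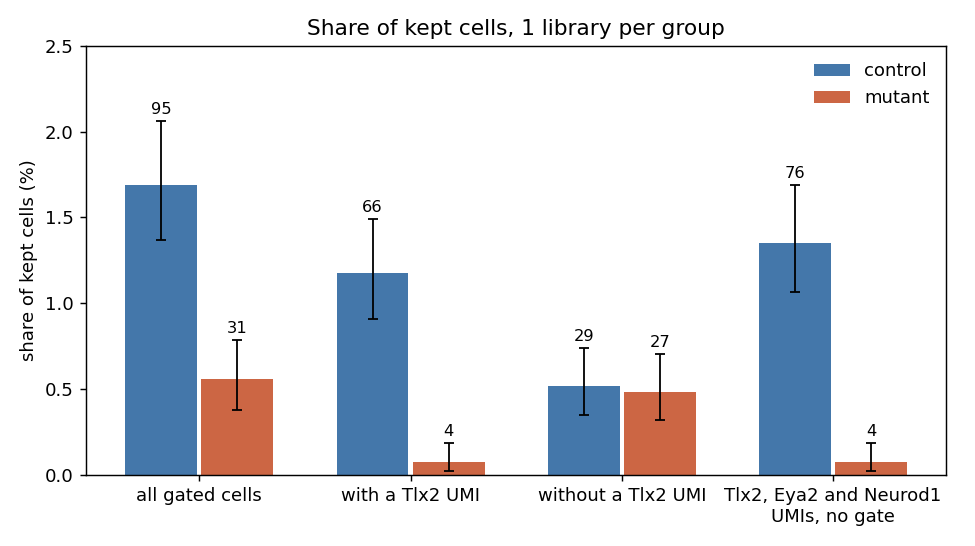
Share of kept cells (vertical axis, %) for all gated cells, those with and without a Tlx2 UMI, and cells with UMIs of Tlx2, Eya2 and Neurod1 whatever the gate, with bars for the control and mutant libraries, 95% exact binomial intervals and the number of cells above each bar. The bars for cells without Tlx2 are of like height (29 and 27 cells), and the other pairs differ.

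Which gate term removed cells was examined by dropping each in turn. Without the Sox10 term the gate took 104 control and 32 mutant cells, without the mesenchyme term 111 and 33, and without the neuron term 103 and 32. Among cells with Tlx2 these terms gave 68 and 4, 77 and 4, and 67 and 4 cells. Dropping the Pou4f1 term gave 124 and 104 cells, of which 66 and 4 had Tlx2, and dropping the Isl1 term gave 306 and 320, of which 68 and 4 had Tlx2. Cells with Tlx2 were 16.4-fold or more as frequent in the control library under each form of the gate. Each form holds the same 66 control and 4 mutant cells, so this is no independent support for the difference. The share of all gated cells was 5.44% and 5.73% without the Isl1 term. At the edge of the gate, 6 control and 5 mutant members had exactly 1 Isl1 UMI and 3 and 9 exactly 1 Pou4f1 UMI. A further 29 control and 73 mutant cells passed all terms but had no Pou4f1 UMI. Sox10 itself, a factor of neural crest and glia, had at least 3 UMIs in 2.68% of the control and 2.43% of the mutant kept cells.

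The targeted genes were examined in the members. Tfap2a (ENSMUSG00000021359, GRCm38 chr13:40715302-40738376) had 105 UMIs in 55 of 95 control members and 24 UMIs in 10 of 31 mutant members, a log2 ratio of mutant over control CPM of -0.63 [-1.34, 0.02]. Tfap2b (ENSMUSG00000025927, chr1:19208914-19238576) had 518 UMIs in 75 control cells and 192 in 19 mutant cells, a log2 ratio of 0.06 [-0.18, 0.31]. Its ratio was -0.77 [-1.79, 0.09] within the cells with Tlx2 and -0.30 [-0.59, -0.02] within those without. Transcripts of both genes were thus counted in mutant members, including all 4 with Tlx2 for Tfap2a. The libraries count transcript ends and the floxed parts were not separated from the rest, so these values do not check recombination. Tfap2c had no UMI in any member.

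To compare transcript levels, UMIs were summed over the members of each library. The sums were 1834267 UMIs in the control and 650022 in the mutant library. Of 2956 genes with at least 100 UMIs in 1 or both, 216 (7.31%) had a CPM 1.5-fold or more higher in the mutant library and 229 (7.75%) 1.5-fold or more lower. The median log2 ratio was 0.03. With TMM scaling, which moved all log2 ratios by -0.19, these counts became 109 and 476, so small differences depended on the scaling. Where values are called higher or lower here, this fold is meant, and it describes 2 libraries. The sums also mix the 2 subsets in different proportions, so each gene is given for all members and then within the cells with Tlx2 (66 control, 4 mutant) and without (29 control, 27 mutant). Within cells with Tlx2, 186 of 1973 genes (9.43%) were higher and 353 (17.9%) lower, with only 81514 UMIs in the 4 mutant cells. The 66 control cells held 1246452 UMIs, so a gene reached 100 UMIs there at a lower CPM, and the limit favours lower calls. The control sum was also the larger over all members, where 975 genes were higher and 658 lower at 30 UMIs or more. Within cells without Tlx2, 23 of 1048 genes (2.19%) were higher and 15 (1.43%) lower. These shares over all genes compared are the background for the list counts below.

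Among 17 sensory identity factors, 7 were compared, 4 were lower and 0 higher, with a median log2 ratio of -0.67. Over all genes compared, 7.75% were lower and 7.31% higher. The lower ones were Six4, Eya2, Tlx3 and Shox2. Eya2 (chr2:165595032-165771727) had 354 control and 45 mutant UMIs, a log2 ratio of -1.48 [-1.96, -1.03]. Within the cells with Tlx2 its ratio was 0.34 [-0.30, 0.91], and within those without it was -0.99 [-1.86, -0.16], from 39 UMIs in 10 control cells and 19 in 8 mutant cells. Six4, a homeobox gene of sensory progenitors, went from 100 to 11 UMIs (-1.69 [-2.74, -0.79]), with 0.30 [-1.06, 1.40] within the cells with Tlx2. Shox2, a homeobox gene of some sensory and brain neurons, had 588 and 131 UMIs (-0.67 [-0.95, -0.39]), with -0.15 [-0.74, 0.39] in cells with Tlx2 and 0.14 [-0.28, 0.55] in cells without. Eya2, Six4 and Shox2 therefore differed in the sums but not beyond counting error within the cells with Tlx2.

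Tlx3 behaved otherwise. This homeobox gene had 558 UMIs in 87 of 95 control members and 104 UMIs in 18 of 31 mutant members. Its log2 ratio was -0.93 [-1.24, -0.62] in all members, -0.79 [-1.67, -0.02] in cells with Tlx2 and -1.01 [-1.39, -0.64] in cells without. The median was 5 UMIs per control cell and 2 per mutant cell, and each library ranged from 0 to 19 and 0 to 15, so cells overlapped widely. Prrxl1, also called Drgx, a homeobox gene of nociceptive circuits, had 321 UMIs in 74 control and 101 UMIs in 17 mutant members (-0.17 [-0.51, 0.16]), and -0.38 [-0.79, 0.04] in cells without Tlx2. Isl2, the paralog of Isl1, had 125 control and 52 mutant UMIs in cells without Tlx2 (-1.22 [-1.71, -0.74]), and 60 and 0 UMIs in those with Tlx2. Its UMIs lay in 14 of 29 control and 6 of 27 mutant cells without Tlx2. Prdm12, a regulator of nociceptor development, had 98 and 37 UMIs (0.09 [-0.50, 0.65]). Runx1 and Runx3, factors of later sensory subtypes, had no UMI in any member.

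Of 28 neurogenic factors 20 were compared, 2 were higher and 7 lower (7.31% and 7.75% over all genes compared). The lower ones were Neurog1, Neurod1, Neurod4, Nhlh1, Hes6, Btg2 and Mfng, and the higher ones Scrt1 and Onecut2. Neurod1 (chr2:79452521-79456751) had 1510 UMIs in 82 control members and 211 in 21 mutant members, a log2 ratio of -1.34 [-1.56, -1.13]. Within the cells with Tlx2 its ratio was 0.64 [0.38, 0.89], where the median was 22 UMIs per cell (1 to 44) in the control library and 39.5 (21 to 44) in the mutant library. Within the cells without Tlx2 it was -0.50 [-0.97, -0.04]. Neurog1 (chr13:56250478-56252163) gave -1.66 [-2.15, -1.20] in all members, 0.33 [-0.30, 0.90] in the cells with Tlx2 and -1.54 [-2.49, -0.67] in those without, the last from 45 UMIs in 10 control cells and 15 in 9 mutant cells. Nhlh1 gave -1.27 [-1.72, -0.85], 0.32 [-0.32, 0.90] and -0.59 [-1.34, 0.14] in these sets, and Hes6, an inhibitor of Hes1 activity, -1.12 [-1.34, -0.91], 0.31 [-0.03, 0.63] and -0.67 [-1.01, -0.34]. These 4 genes were thus lower in the sums and had positive ratios in the cells with Tlx2, with an interval above 0 for Neurod1. In those cells 4 of 19 neurogenic factors compared were higher (Neurod1, Dll3, Onecut2 and Sox11) and 0 lower, against 9.43% and 17.9% of all genes compared there. Onecut2 had 0, 0, 0 and 30 UMIs in the 4 mutant cells, so its value rests on 1 cell. Neurog2 was sparse, with 17 UMIs in 4 control and 49 UMIs in 5 mutant members.

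**Figure D4:**
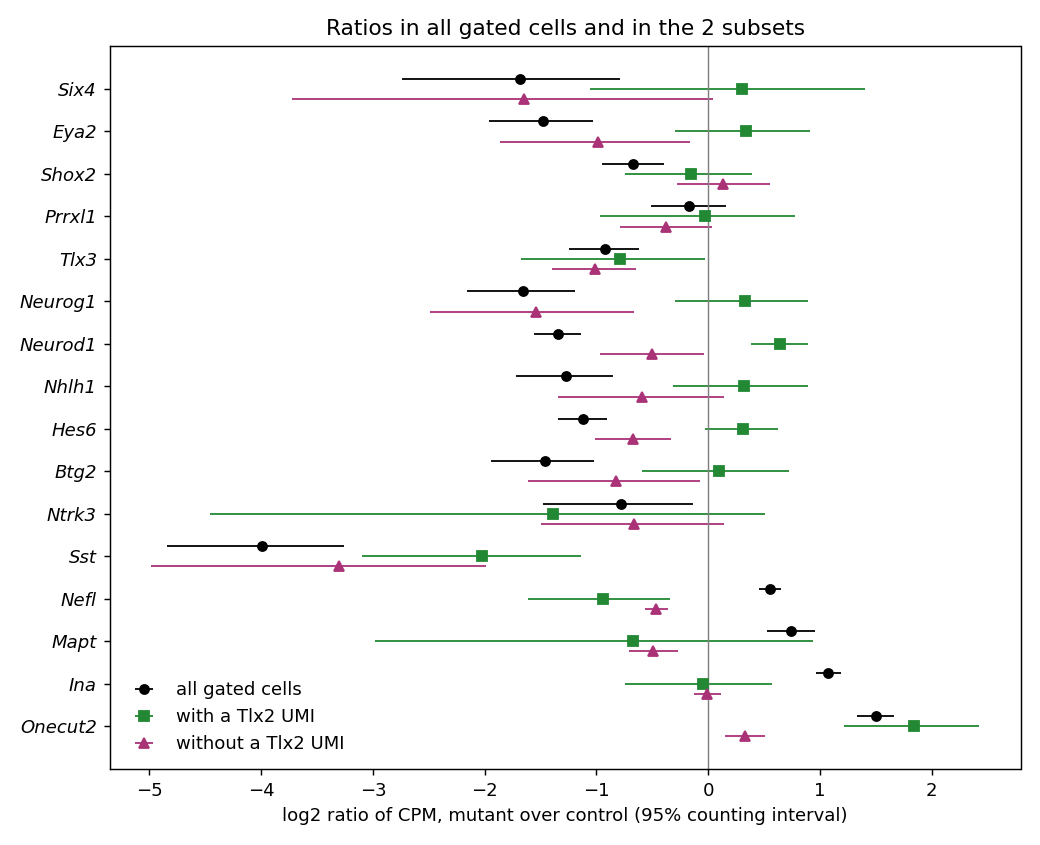
Log2 ratio of CPM, mutant over control (horizontal axis), with 95% counting intervals for 16 genes in all gated cells, in cells with a Tlx2 UMI and in cells without. For Eya2, Neurog1 and Hes6 the whole interval lies left of 0 for all gated cells and for cells without Tlx2 but not for cells with it, for Tlx3 and Sst it lies left of 0 in all 3 sets, and the Nefl and Mapt values lie right of 0 for all gated cells and left of 0 in both subsets.

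Receptors for neurotrophic factors were examined as markers of sensory subtype. Ntrk3, the receptor of neurotrophin 3, had 116 UMIs in 37 of 95 control members and 24 UMIs in 13 of 31 mutant members, a log2 ratio of -0.78 [-1.48, -0.13]. In cells with Tlx2 the ratio was -1.39 [-4.46, 0.51] from 80 and 2 UMIs, and in cells without -0.66 [-1.50, 0.14] from 36 and 22 UMIs. Ntrk2 had 42 UMIs in 18 control cells and 4 UMIs in 4 mutant cells. Both receptors therefore had fewer UMIs per summed UMI in the mutant library, while the share of members with an Ntrk3 UMI was 2.99 percentage points higher there and turned to -3.94 after thinning. Ntrk2 and Ntrk3 were found together in 7 of 66 control cells with Tlx2 and 8 of 29 without, and in 0 of 4 and 2 of 27 mutant cells. Ntrk3 was also counted in 13.9% and 11.6% of the other neurons and in 0.545% and 0.85% of mesenchyme cells. Ret, the receptor tyrosine kinase for GDNF family ligands, was found in 0 of 66 control cells with Tlx2, in 9 of 29 control cells without, and in 7 of 27 mutant cells without. Over the list of 19 receptors and ligands, 5 were compared, 2 were higher (Kidins220 and Nrg1) and 1 lower (Ntrk3). Over all genes compared these shares were 7.31% and 7.75%.

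Stage genes overlapped in the same control cells. Of the 66 control cells with Tlx2, 24 had a UMI of Ntrk3, 19 of these together with Neurog1, and 23 had a UMI of the mitotic gene Top2a, 22 of these together with Neurog1. Of the 4 mutant cells with Tlx2, all had Neurog1, 2 had Ntrk3 and 1 had Top2a. In cells without Tlx2, Top2a lay in 7 of the 29 control cells (37 UMIs) and 9 of the 27 mutant cells (87 UMIs), a log2 ratio of 1.28 [0.71, 1.88]. Over the cell cycle list of 23 genes, 12 were compared in all members, 1 was higher (Top2a) and 4 lower (Ccnb1, Ccnb2, Birc5 and Cenpa). The shares over all genes compared were 7.31% and 7.75%.

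**Figure D5:**
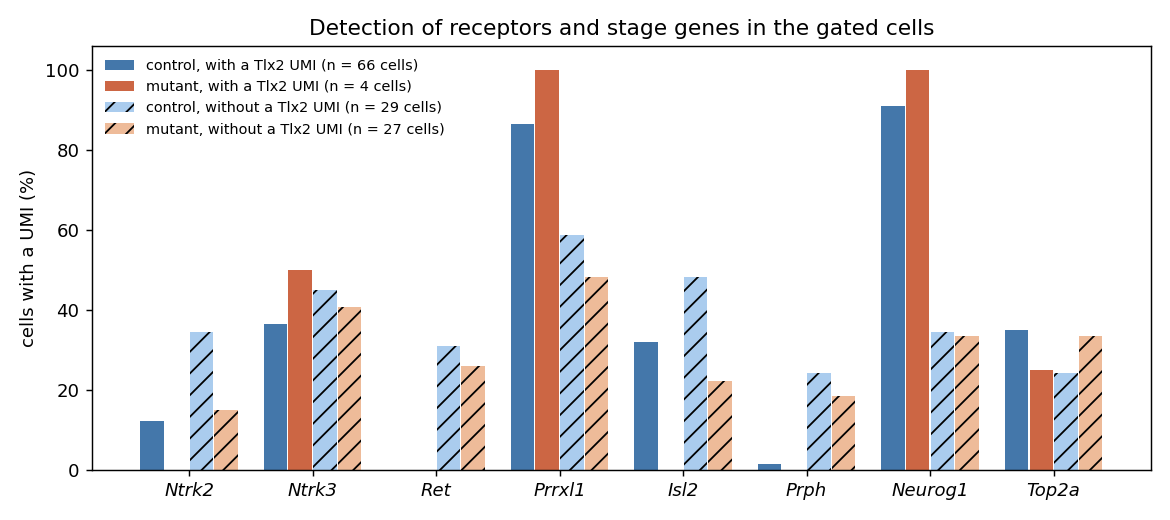
Share of gated cells with at least 1 UMI (vertical axis, %) of 8 receptors, sensory factors and stage genes, with bars for control and mutant cells with a Tlx2 UMI (n = 66 and 4) and without (n = 29 and 27). Ret bars stand only in the cells without Tlx2, and Neurog1 was found in 60 of 66 and 4 of 4 cells with Tlx2.

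Of 31 genes for sensory channels, transmitters and peptides 6 were compared. The lowest ratio among the genes with 100 UMIs or more was that of Sst, which encodes the peptide somatostatin (ENSMUSG00000004366, chr16:23889573-23890958). It had 674 UMIs in 36 of 95 control members and 15 UMIs in 4 of 31 mutant members, a log2 ratio of -3.99 [-4.84, -3.26]. The UMIs were uneven, with a median of 0, a highest value of 149 in the control library and of 7 in the mutant library, and 86.4% of the control UMIs in 10 cells. The ratio was -2.03 [-3.09, -1.14] in cells with Tlx2 and -3.30 [-4.99, -1.99] in cells without. In the other neurons of the same libraries it was 0.18 [0.06, 0.29]. Cacna2d2, a calcium channel subunit, was lower in the sums (-1.59 [-2.51, -0.79]), with 111 of its 119 control UMIs in cells with Tlx2. Its ratio was -0.27 [-1.75, 0.89] in cells with Tlx2 and 0.05 [-1.56, 1.66] in cells without. Scn9a, a sodium channel of peripheral neurons, was higher in the sums (0.84 [0.46, 1.22]), but its ratio in cells without Tlx2, which held most of its UMIs, was -0.29 [-0.69, 0.11]. Slc17a7, a vesicular glutamate transporter, fell below the limit for comparison with 57 UMIs in 33 control cells and 1 UMI in 1 mutant cell, whereas Slc17a6, another one, had 129 UMIs in 42 and 39 UMIs in 16 cells (-0.23 [-0.78, 0.30]). Piezo2, Trpv1, Trpa1, Trpm8 and Tac1, genes of mature sensory neurons, had no UMI in any member.

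Of 32 genes of the neuronal cytoskeleton and synapse 28 were compared. In all members 12 were higher and 2 lower, with a median log2 ratio of 0.54, against 7.31%, 7.75% and 0.03 over all genes compared. Within cells with Tlx2, 3 of 23 were higher (Dcx, Map2 and Dpysl3) and 10 lower, with a median of -0.22. Over all genes compared there, 9.43% were higher and 17.9% lower, with a median of -0.09. Within cells without Tlx2, 0 of 24 were higher and 1 lower (Prph), with a median of -0.13, against 2.19%, 1.43% and -0.01 over all genes. Nefl, the light neurofilament chain, had log2 ratios of 0.55 [0.45, 0.65], -0.94 [-1.61, -0.34] and -0.46 [-0.57, -0.36] in these 3 sets. Mapt, which encodes tau, had 0.74 [0.53, 0.95], -0.67 [-2.98, 0.93] and -0.49 [-0.71, -0.27]. Gap43, a growth cone protein, had 0.46 [0.35, 0.56], -0.88 [-1.48, -0.34] and -0.41 [-0.52, -0.29]. In the 4 mutant cells with Tlx2, Dpysl3 had 0, 0, 0 and 15 UMIs and Map2 0, 0, 1 and 12, so 1 cell held most of them. Cells without Tlx2 were 29 of 95 control and 27 of 31 mutant members, and in the control library their Nefl level was 3071 CPM against 542 in cells with Tlx2. The part of these proportions in the values for all members was not tested. Prph was lower in all members (-0.93 [-1.52, -0.38]), from 172 UMIs in 8 control cells and 32 UMIs in 5 mutant cells.

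Of 48 axon guidance and adhesion genes 13 were compared, 4 were higher (Robo2, Dcc, Epha5 and Ncam1) and 1 lower (Efnb2). Of all genes compared, 7.31% were higher and 7.75% lower. Dcc, the netrin receptor, had 120 and 104 UMIs (1.29 [0.90, 1.68]) and 0.08 [-0.35, 0.51] in cells without Tlx2. Epha5, an ephrin receptor, had 166 UMIs in the 66 control cells with Tlx2 and 1 UMI in the 4 mutant cells (-3.44 [-8.75, -0.94]), against 102 and 149 UMIs in cells without (0.59 [0.22, 0.97]). Cntn2, a contactin of early axons, gave 190 and 1 UMIs in cells with Tlx2 and 88 and 91 in cells without. Cdh6, a cadherin of the neural crest, was below the limit for comparison and had 74 and 31 UMIs in cells with Tlx2 (2.68 [2.02, 3.30]).

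The 12 genes with the lowest ratios in all members were Sst, Tlx2, Rassf3, Synpo, Mreg, Kcnmb2, Gm16104, Rgs4, Ppp1r14a, Pde2a, Nedd1 and Alcam. In the control library, cells with Tlx2 held most of the UMIs of the other 11, from 1241 of 1366 for Ppp1r14a to 150 of 152 for Gm16104. Tlx2 itself (chr6:83068324-83070293) had 464 UMIs in 66 control cells and 25 UMIs in 4 mutant cells, a log2 ratio of -2.72 [-3.36, -2.14]. Ppp1r14a, an inhibitor of a phosphatase that acts on myosin, had 1366 and 109 UMIs (-2.15 [-2.45, -1.87]), with -0.17 [-0.54, 0.17] within the cells with Tlx2 and -1.71 [-2.28, -1.17] within those without. Among the 11, Sst and Rgs4, a regulator of G protein signalling (-1.31 [-2.64, -0.25]), had intervals below 0 within the cells with Tlx2. In the 4 mutant cells with Tlx2, Rgs4 had 0, 0, 0 and 7 UMIs and Sst 0, 0, 3 and 7.

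The 12 with the highest ratios were Gm15261, Scg5, Pou3f1, Mir124-2hg, Zic1, Rmst, Slc1a2, Pou3f4, Pou2f2, Gpm6a, Onecut2 and Igfbpl1. Pou3f1 (chr4:124656807-124660655) had 153 UMIs in 33 control cells and 223 in 25 mutant cells, a log2 ratio of 2.04 [1.74, 2.35] that was 0.84 [0.52, 1.16] in the cells without Tlx2 and 0.10 [0.02, 0.17] in the other neurons. Zic1 (chr9:91358058-91365810) had 76 and 104 UMIs, with 1.95 [1.51, 2.40] in all members and 0.54 [0.10, 0.99] in cells without Tlx2. Onecut2 had 585 and 586 UMIs, which is 319 and 902 CPM, with a log2 ratio of 0.33 [0.15, 0.51] in cells without Tlx2. Gm15261, annotated as an antisense transcript on the X chromosome, had 0 control and 101 mutant UMIs. Its log2 ratio was 6.57 with the control count set to the floor of 3, and the lower limit of its interval was 6.25. Gm15261 was also higher in the other neurons (9.83 [7.98, 12.88]). Scg5, a neuroendocrine chaperone, was higher in the members (2.04 [1.61, 2.48]), in the other neurons (1.33 [1.21, 1.46]) and in the remaining kept cells (1.96). Both differences were thus also measured outside the gated cells. In the control library, 10 cells held over 50% of the UMIs of Sst and Alcam among the 12 lowest genes and of all but Scg5 and Gm15261 among the 12 highest.

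The members' ratios were also set against those of the other neurons. Among genes with 100 UMIs or more in the members of 1 or both libraries and in the other neurons of both, Sst, Rgs4, Npr2, Pcdh17, Alcam, Ppp1r14a, Nedd1 and Trim9 had the largest shortfall of the members' ratio against that of the other neurons, and Slc1a2, Mir124-2hg, Pou3f1, Pou3f4, Rmst, Pou2f2, Zic1 and Pou3f2 the largest excess. Pcdh17, a protocadherin, had -1.92 in the members and 0.32 in the other neurons, and Pou3f2 1.46 and -0.11. Levels in the members relative to other neurons were ranked, by the lower of the 2 libraries, among genes with 100 UMIs or more in the members of both libraries, which leaves out Tlx2 and other genes that were sparse in the mutant members. They were led by Prrxl1 (14.9-fold in the control and 15.0-fold in the mutant library), Tlx3 (13.4 and 11.1), Ppp1r17 (9.3 and 6.38), Sncg (4.77 and 7.03) and S100a10 (4.71 and 6.3). Prrxl1 and Tlx3 were thus far above the other neurons in both libraries, although most mutant members had no Tlx2 UMI.

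Few brain neuron genes reached the limit for comparison. Of 15 excitatory and rhombic lip genes 5 were compared, 3 were higher (Lhx2, Lhx9 and Zic1) and 1 lower (Nfib), with a median log2 ratio of 1.01 in all members. This median turned to -0.19 with a stricter gate of 2 UMIs of each gene and to -0.11 in cells without Tlx2. Lhx2, a LIM homeobox gene, had 114 UMIs in the control and 97 in the mutant members (1.26 [0.86, 1.67]), 90.4% and 97.9% of them in 10 cells, and 0.24 [-0.20, 0.69] in cells without Tlx2. Lhx1, the 1 inhibitory neuron gene compared, gave 1.27 [0.84, 1.69], with all UMIs in 10 cells or fewer of each library. Meis2, a TALE homeobox gene, was lower in the cells without Tlx2 (-0.76 [-1.01, -0.51]) from 364 and 208 UMIs. No Hox gene or other member of the positional list reached 100 UMIs. Hoxa2, Hoxb2, Hoxa3 or Hoxb3 were found in 16 control and 7 mutant members.

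Promoter sequences of 300 bases, 250 before and 50 after the gene start, were taken from RefSeq (GRCm38.p6) for genes of the sensory program that had a match, and searched for the TFAP2 core GCCNNNGGC, which reads the same on both strands. It was present in 16.6% of 32851 windows of this length. Of the genes compared, 2358 were matched and 29.8% of them held it, against 29.5% of 156 matched genes called higher and 31.8% of 179 called lower. The windows of Isl1, Pou4f1 and Neurod1 had no match. Those of Tlx3, which was lower in both subsets, of Prrxl1 and Nhlh1, and of Zic1, which was higher in the sums, each held 1 and are shown 5′ to 3′ on the strand of the gene with the match in capitals. Tlx3 lies at chr11:33203539-33203838 (minus strand), Prrxl1 at chr14:32599677-32599976 (plus strand), Nhlh1 at chr1:172057547-172057846 (minus strand) and Zic1 at chr9:91365719-91366018 (minus strand). A match describes the letters in the window and not binding.
Tlx3: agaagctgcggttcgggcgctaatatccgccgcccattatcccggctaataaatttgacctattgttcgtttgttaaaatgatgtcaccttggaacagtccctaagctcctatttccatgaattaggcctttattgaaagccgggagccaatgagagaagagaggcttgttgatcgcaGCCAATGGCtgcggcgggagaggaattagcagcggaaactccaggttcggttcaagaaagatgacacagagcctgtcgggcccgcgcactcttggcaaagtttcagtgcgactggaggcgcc
Prrxl1: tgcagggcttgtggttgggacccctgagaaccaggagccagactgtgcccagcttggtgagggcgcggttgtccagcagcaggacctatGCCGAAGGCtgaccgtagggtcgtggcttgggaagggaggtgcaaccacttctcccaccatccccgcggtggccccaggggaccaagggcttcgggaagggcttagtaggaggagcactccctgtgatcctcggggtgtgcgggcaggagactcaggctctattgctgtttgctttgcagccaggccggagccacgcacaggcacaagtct
Nhlh1: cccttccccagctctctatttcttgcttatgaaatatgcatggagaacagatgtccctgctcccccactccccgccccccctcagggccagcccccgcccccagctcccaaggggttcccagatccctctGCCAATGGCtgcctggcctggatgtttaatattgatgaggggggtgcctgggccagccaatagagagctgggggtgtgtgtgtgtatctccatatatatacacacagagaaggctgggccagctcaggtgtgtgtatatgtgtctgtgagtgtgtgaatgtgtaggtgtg
Zic1: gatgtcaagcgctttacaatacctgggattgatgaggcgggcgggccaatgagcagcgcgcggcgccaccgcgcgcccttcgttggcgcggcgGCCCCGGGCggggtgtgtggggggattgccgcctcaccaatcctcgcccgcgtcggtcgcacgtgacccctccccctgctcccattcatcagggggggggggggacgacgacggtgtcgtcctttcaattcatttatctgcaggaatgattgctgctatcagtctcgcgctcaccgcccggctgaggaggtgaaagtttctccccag
The match began at base 179 of the Tlx3 window, 90 of the Prrxl1 window, 131 of the Nhlh1 window and 94 of the Zic1 window. The Tlx3 and Nhlh1 matches were the same letters, and these also hold a CCAAT box (CCAAT, or ATTGG on the other strand).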

How the data were processed

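Single-cell RNA-seq was carried out on 1 control and 1 mutant library. The authors deposited raw UMI counts (whole numbers, not normalized) for every gene in every barcode, made from 10x Chromium 3′ libraries with Cell Ranger (6.0.0 in the file headers) and mm10. The submitters' processing notes also name Seurat 4.3.0. Barcodes with 200 to 7500 genes and at most 10% mitochondrial UMIs were kept. The libraries held 83542433 and 79206144 UMIs in 6148 and 6063 barcodes, 6 of them with the same sequence, and no sequence was a member in both libraries. The gate was applied to raw counts. UMIs were summed over members and given as CPM of that sum. Intervals at 95% were exact conditional binomial for ratios and Clopper-Pearson for shares, and cover counting error only. The ratio and its interval were run on simulated Poisson counts with known folds. These had no variation between cells or libraries, so this checks the calculation only. Genes with 100 UMIs or more in 1 or both libraries were compared, without the 8 gate genes, Xist, Tsix and Y-linked genes, and Tlx2 was left out of its own subsets. Where a library had 0 UMIs, a floor of 3 counts was used. Named genes were those of fixed lists, the 12 highest and 12 lowest ratios, 8 on each side by the difference from the other neurons (100 UMIs or more there in both libraries) and 12 by the ratio to them (100 UMIs or more in members of both libraries). The members and lists were chosen with earlier results of these data known, and the Tlx2 split was chosen after seeing the values. A few genes are not reported here and are in no list, count or median. Doublets were called with Scrublet in scanpy 1.11.5 (1 member in each library) and removed in an alternative. TMM scaling came from edgeR 4.0.16. Coordinates are from GENCODE M21 (GRCm38, the assembly of mm10). How strand was used in counting is not given in the sources used here, so overlapping genes are uncertain.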

Additional observations from a re-analysis of the deposited data

Results flagged for a closer look

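Transcripts that mark sex lay outside the comparisons and split the libraries. Xist gave 2417 UMIs in 94 of the 95 control members and 0 in the mutant members. Uty, Kdm5d, Ddx3y and Eif2s3y, all Y-linked, together gave 100 UMIs in 27 of the 31 mutant members and 1 UMI in 1 control member.

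For 2 genes of the lists, the log2 ratio lay on opposite sides of 0 in cells with and without a Tlx2 UMI, with counting intervals that did not reach 0, and the difference between the subsets was not tested. Ebf1, a helix-loop-helix factor of young neurons, had 0.55 with Tlx2 and -0.15 without. Epha5 had -3.44 and 0.59, with 1 UMI in the mutant cells with Tlx2.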

How the results depend on the processing

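No paired analysis was possible because each group is 1 library, and for the same reason no library could be left out. The number of genes 1.5-fold higher and lower, 216 and 229 as reported, became 109 and 476 with TMM scaling, 50 and 81 after thinning to 5000 UMIs (729 genes compared), 975 and 658 at 30 UMIs or more, and 3441 and 1455 with 1 UMI in each library. It was 353 lower in cells with Tlx2 and 23 and 15 in cells without, both chosen after seeing the data. The difference in the share of gated cells was -8.33 percentage points of neurons and -0.0323 for cells without Tlx2. The share of members with an Ntrk3 UMI, 2.99 percentage points higher in the mutant library, turned to -3.94 after thinning. In cells with Tlx2 the list medians were -0.15 (sensory identity), 0.32 (neurogenic), -1.15 (channels), -0.22 (cytoskeleton) and -0.075 (brain progenitors). In cells without Tlx2 they were -0.38 (sensory identity), -0.29 (channels), -0.13 (cytoskeleton) and -0.11 (excitatory, reversed). With a stricter gate of 2 UMIs of each gene the medians were 0.81 (neurotrophic), -1.003 (channels), 0.75 (cytoskeleton), -0.19 (excitatory, reversed) and -0.64 (brain progenitors). The channel median was -5.61 after thinning, from 1 gene, the cytoskeleton median 0.35 with TMM, the sensory identity median -0.33 with equal weight per cell, and the brain progenitor median -0.55 without doublets. At 30 UMIs or more the neurogenic median was 0.36 and the brain progenitor median -0.078, and with 1 UMI in each library these were 0.40 and 0.11, and the sensory identity median -0.17. Among the 24 genes with the highest and lowest ratios, 3 values changed sign: Alcam (0.074) in cells with Tlx2, and Rgs4 (0.86) and Nedd1 (0.048) in cells without. Beyond the settings that remove cells or genes, the cause of these changes was not tested. The 4 mutant cells with Tlx2 limit all values within that subset.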
